A study of Homo sapiens with 4 samples.

Results

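FYN and MARCKS are 2 of the 785 gene probes in a NanoString count table of HAP1 cells. Both encode lipid-anchored proteins of the inner face of the plasma membrane and lie on the long arm of chromosome 6. The pair was chosen by its normalised counts, which were higher in both lines lacking MATR3, so the values of these genes in that comparison are given as a description, with no test.

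HAP1 is an established near-haploid human cell line derived from a chronic myeloid leukaemia. The study compared 2 wild-type lines, numbered 1 and 7, with 2 MATR3 knockout lines, numbered 1 and 5, all grown in the same medium. They are called WT-1, WT-7, KO-1 and KO-5 below where single lines are listed. MATR3 encodes matrin 3, which binds nucleic acids within the nuclear matrix. The labels call the knockouts clones bought from a supplier and describe the wild types as separate supplier batches, also with clone numbers. Each line gave 1 total RNA sample, so a genotype was represented by 2 lines and a clone's own history could not be told apart from the knockout. Colour-coded probes were counted on single RNA molecules without amplification. The level of MATR3 was not analysed here, and the genotype labels were therefore not checked.

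FYN is a tyrosine kinase of the SRC family. Fatty acids joined to its amino terminus hold it at the membrane, where it relays signals from antigen receptors, integrins and growth factor receptors, and the kinase CSK and phosphatases set its activity. MARCKS is a main substrate of protein kinase C. A myristoyl group and a stretch of basic residues bind it to acidic phospholipids such as phosphatidylinositol bisphosphate. Phosphorylation by protein kinase C releases it from the membrane, and it also cross-links actin.

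The sequences around the annotated starts of both genes are shown because the genes were higher in the same lines and the starts differ in kind. They come from RefSeq on GRCh38.p14, run 5′ to 3′ on the gene's strand, and cover 250 bases before and 50 bases after the first transcribed base. Capitals mark matches on either strand to the letters GGGCGG, the GC box, or to the motif CCAAT, which did not overlap each other. The first listed start of FYN is at chr6:111873403-111873702 on the minus strand, a more internal FYN start is at chr6:111759868-111760167 on the minus strand, and the only listed MARCKS start is at chr6:113857095-113857394 on the plus strand.
FYN, first listed start: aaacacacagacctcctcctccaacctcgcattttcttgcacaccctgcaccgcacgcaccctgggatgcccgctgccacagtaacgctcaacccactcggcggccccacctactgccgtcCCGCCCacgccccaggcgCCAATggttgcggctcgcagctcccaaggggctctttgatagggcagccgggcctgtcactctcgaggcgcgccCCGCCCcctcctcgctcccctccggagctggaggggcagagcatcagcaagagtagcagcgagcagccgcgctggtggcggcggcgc
FYN, internal start: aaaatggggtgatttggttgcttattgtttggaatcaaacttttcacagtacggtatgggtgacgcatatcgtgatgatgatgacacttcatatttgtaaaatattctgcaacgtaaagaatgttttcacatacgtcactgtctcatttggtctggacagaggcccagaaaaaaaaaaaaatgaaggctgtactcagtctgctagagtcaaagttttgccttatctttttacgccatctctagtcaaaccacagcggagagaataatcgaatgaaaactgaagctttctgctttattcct
MARCKS: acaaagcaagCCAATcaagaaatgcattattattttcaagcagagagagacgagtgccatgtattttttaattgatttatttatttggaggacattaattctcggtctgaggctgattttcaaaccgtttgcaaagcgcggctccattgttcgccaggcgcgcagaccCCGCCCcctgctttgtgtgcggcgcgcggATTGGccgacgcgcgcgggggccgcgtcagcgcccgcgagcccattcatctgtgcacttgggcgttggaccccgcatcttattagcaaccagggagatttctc

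The first FYN start had 69.0% G and C, 26 CpG pairs, 2 GC box matches and 1 CCAAT match. MARCKS had 53.0% G and C, 25 CpG pairs, 1 GC box match and 2 CCAAT matches. Over all 35116 promoters of that length in the RefSeq table the medians were 58.7% and 14 CpG pairs, 45.0% held a GC box match and 34.6% a CCAAT match. Of the 4 listed FYN starts, the second, at 82.3% G and C with 55 CpG pairs, held 8 GC box matches and no CCAAT match. The internal start shown had 38.0% G and C, and neither it nor the fourth, at 47.3%, held a match to either motif. The letters TATAAA of the TATA box, TGACGTCA of the cAMP response element and TGANTCA of the AP-1 site, also searched on both strands, were not among the letters of any of these 5 windows, against 11.5%, 1.85% and 7.71% of all promoters. The counts do not show which FYN start was used in these cells, because 1 probe gave 1 value for the gene.

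The whole gene counts of the 4 samples summed to 448610 to 571767. Values are normalised counts, that is, probe counts multiplied by 1 factor per sample. A background limit, the mean plus 2 SD of the 8 negative control probes on the same scale, lay at 19.5 to 25.7. Of 16 blood cell markers 15 were in the table, and their summed level was 217 in WT-1, 275 in WT-7, 204 in KO-1 and 168 in KO-5. CD14 had the highest level of these markers, at 25.6 to 37.7, and was the one above the limit in all 4 lines. CD3G, CD4, LCK and ZAP70 exceeded it in 2 lines each. PTPRC, the antigen common to leukocytes, and CD3D, CD3E, CD247, CD8A and ITGAM lay below it in all 4 lines.

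FYN had 164 normalised counts in WT-1 and 145 in WT-7. It had 324 in KO-1 and 392 in KO-5. Both knockout lines lay above both wild-type lines, and the order from low to high was wild type 7, wild type 1, knockout 1 and knockout 5. The whole counts behind these values were 157, 170, 291 and 377 for wild type 1, wild type 7, knockout 1 and knockout 5. Exact 95% Poisson intervals, which cover counting error only, ran from 139 to 192 and from 124 to 169 in wild types 1 and 7, and from 288 to 363 and from 354 to 434 in knockouts 1 and 5. Neighbours within a genotype had overlapping intervals. The highest wild-type and the lowest knockout interval did not overlap, but FYN was chosen for being higher in the knockout lines, so this is no test. FYN stood at 6.38 times (WT-1), 6.88 times (WT-7), 16.6 times (KO-1) and 18.1 times (KO-5) the background limit.

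The group means of FYN in wild type and knockout were 155 ± 13.0 and 358 ± 48.4 (SD, n = 2), a 2.32-fold ratio. On the log2(value + 1) scale the difference, knockout minus wild type, was 1.20 ± 0.14 (SE from the fit to all tested genes). Single knockout against single wild-type lines gave 0.98 (knockout 1 and wild type 1), 1.15 (knockout 1 and wild type 7), 1.26 (knockout 5 and wild type 1) and 1.43 (knockout 5 and wild type 7). The wild-type lines differed by 0.17 and the knockout lines by 0.28, both less than the smallest difference between genotypes, 0.98. The choice of the gene favours this, so it is a description.

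MARCKS had 1216 normalised counts in WT-1 and 983 in WT-7. It had 2617 in KO-1 and 2545 in KO-5. The groups again did not overlap, but the order of the knockout lines was the opposite of that of FYN. Whole counts were 1166, 1149, 2352 and 2446 in wild type 1, wild type 7, knockout 1 and knockout 5. The 95% Poisson intervals of the wild-type lines, 1148 to 1288 for line 1 and 927 to 1042 for line 7, did not overlap. The whole counts of these lines were close, and the intervals treat the sample factors, 1.04 for line 1 and 0.856 for line 7, as known. They therefore do not show that the wild-type lines differed in MARCKS. The intervals of the knockout lines, 2513 to 2725 for line 1 and 2446 to 2648 for line 5, overlapped.

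The group means of MARCKS were 1099.8 ± 165 and 2581 ± 50.8 in wild type and knockout (SD, n = 2), a 2.35-fold ratio. The log2 difference was 1.24 ± 0.10 (SE). Single pairs of lines gave 1.10 (knockout 1 and wild type 1), 1.41 (knockout 1 and wild type 7), 1.06 (knockout 5 and wild type 1) and 1.37 (knockout 5 and wild type 7). For MARCKS the wild-type line used moved the difference more than the knockout line did, since the wild-type lines stood 0.31 apart and the knockout lines 0.04. Among 514 genes that passed the filter, a mean of at least 20, MARCKS had the 6th and FYN the 8th largest log2 increase. In that comparison limma called 6.23% of tested genes higher, 1.95% lower and 8.17% in all, and both knockout lines lay above both wild-type lines in 22.4% and below them in 30.7%, a background from which nothing is read for these genes, as it chose them. The counts do not tell more RNA per cell from more cells with the RNA.

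**Figure D1:**
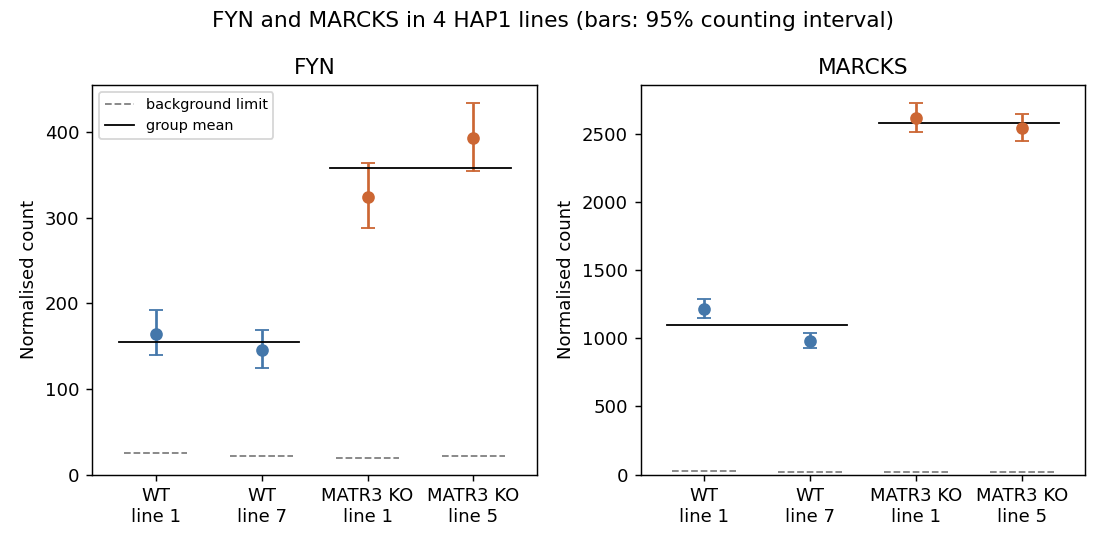
Normalised counts of FYN (left) and MARCKS (right) in wild-type (WT) and MATR3 knockout (KO) HAP1 lines, with exact 95% Poisson intervals as bars, group means as solid lines and each sample's background limit dashed. Both knockout lines lie above both wild-type lines for each gene, at 324 and 392 for FYN and at 2617 and 2545 for MARCKS.

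Of the SRC family kinases and their regulators reported here, 16 were listed, 8 were in the table and 5 were tested. With limma 0 of the 5 passed, beside 8.17% of all tested genes called in either direction. Of the 5, 0 had an unadjusted p under 0.05 in limma, against 102 of all 514 tested genes. EdgeR on the recovered counts also called 0, against 7.98% of all tested genes. Both knockout lines lay above both wild-type lines in 2 and below them in 1. The median log2 fold change of the 5 was 0.11, against -0.04 over all tested genes.

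LYN, a family member found in many cell types, had 682 and 651 normalised counts in WT-1 and WT-7, against 701 and 756 in KO-1 and KO-5. With limma its log2 fold change came to 0.13 ± 0.09 (SE, adjusted p = 0.46). LCK, the T cell member of the family, had 25.04 and 26.52 in WT-1 and WT-7, against 20.03 and 13.53 in KO-1 and KO-5, close to or below the background limit (log2 fold change -0.61 ± 0.42, SE, adjusted p = 0.448). The ubiquitin ligases CBL and CBLB, which mark activated tyrosine kinases for degradation, had log2 fold changes of 0.01 ± 0.14 and 0.17 ± 0.16 (SE, adjusted p = 0.976 and 0.54). The phosphatase PTPN6 had 0.11 ± 0.34 (SE, adjusted p = 0.884). FGR and BLK, further members of the family, and PTPRC, which removes the inhibitory phosphate of these kinases, were below the filter.

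Among the 14 tested genes of immune receptor signalling around FYN, 1 was called higher, SYK, a share near the 6.23% of all tested genes called higher. SYK is a cytoplasmic tyrosine kinase that binds receptor tails phosphorylated by SRC family kinases. It had 34.4 and 40.2 normalised counts in WT-1 and WT-7, against 83.5 and 66.6 in KO-1 and KO-5. In wild type SYK was near the background limit, 25.7 in WT-1 and 21.1 in WT-7. With limma its log2 fold change came to 0.98 ± 0.26 (SE, adjusted p = 0.0411). The call was lost without wild-type line 1 (adjusted p = 0.0868) or knockout line 1 (0.0878), with edgeR on recovered counts (0.0519) and under limma without the trend (0.113). Over these and the other alternatives its adjusted p ranged from 0.0168 to 0.113.

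Of the 36 genes of that list 22 were in the table and 14 were tested, with 1 higher, 0 lower, 13 not past the threshold and a median log2 fold change of -0.10, beside 8.17% of all tested genes called in either direction. Both knockout lines lay above both wild-type lines in 4 and below them in 4, against 22.4% and 30.7% of all tested genes. An unadjusted p under 0.05 in limma was found for SYK (0.00308), PIK3CA (0.0076) and PIK3CD (0.037), higher in knockout, and PTK2B (0.0498), lower. Over all 514 tested genes 102 had one. PLCG1, a phospholipase C that acts below these kinases, had 659 ± 89.4 and 727 ± 37.0 normalised counts in wild type and knockout (SD, n = 2) and a log2 change of 0.15 ± 0.11 (SE, adjusted p = 0.46). PIK3CA, a catalytic subunit of phosphoinositide 3-kinase, had 0.34 ± 0.11 (SE, adjusted p = 0.0751) and PTK2B, a focal adhesion kinase relative, had -0.56 ± 0.26 (SE, adjusted p = 0.251). CD3G, a chain of the T cell receptor complex, stood at 24.6 ± 5.21 and 16.3 ± 8.38 (SD, n = 2), near the background limit, with -0.63 ± 0.48 (SE, adjusted p = 0.46).

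On the side of MARCKS, 37 genes for protein kinase C, actin regulators and other partners were listed and reported here, of which 5 were in the table and 4 were tested. With limma 0 of the 4 passed, against 8.17% of all tested genes, and 1 had an unadjusted p under 0.05, against 102 of all 514. EdgeR on the recovered counts also called 0, against 7.98% of all tested genes. PRKCD, a protein kinase C isoform with an unadjusted p of 0.0164, had 401 and 382 normalised counts in WT-1 and WT-7, against 467 and 489 in KO-1 and KO-5, a log2 difference of 0.29 ± 0.10 (SE, adjusted p = 0.13). PRKCA, a conventional protein kinase C isoform, had -0.02 ± 0.20 (SE, adjusted p = 0.96). PRKCQ, the T cell isoform, had -0.57 ± 0.32 and WAS, an activator of actin branching, -0.46 ± 0.39 (SE, adjusted p = 0.339 and 0.508). The median of the 4 was -0.24.

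Other lipid-modified membrane proteins, not all with the type of anchor of FYN or MARCKS, were measured too. Of 28 such proteins listed and reported here, 6 were in the table and 4 were tested. With limma and with edgeR 0 of the 4 passed, against 8.17% and 7.98% of all tested genes. In limma 0 of the 4 had an unadjusted p under 0.05, against 102 of all 514 tested genes. The prenylated small GTPase NRAS differed by a log2 value of -0.12 ± 0.08 (SE, adjusted p = 0.424 in limma), and the palmitoylated adaptor LAT was near the background limit, with 28.2 to 36.8 normalised counts. The median of the 4 was -0.04. FYN, at 1.20, and MARCKS, at 1.24, lay above SYK, at 0.98 the highest tested member shown in these lists, but were themselves chosen for being higher.

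**Figure D2:**
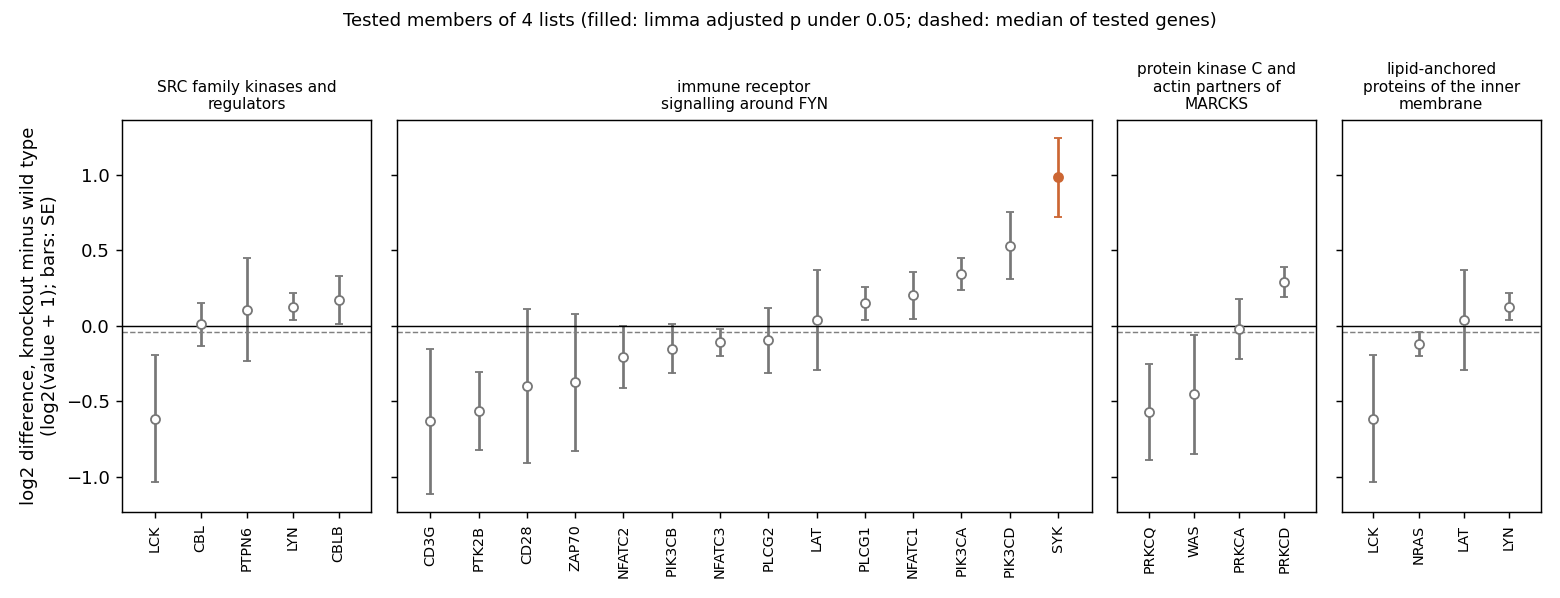
Log2 difference, knockout minus wild type, of the tested genes reported from 4 lists of genes that act with FYN or MARCKS or encode other lipid-modified membrane proteins (vertical axis, log2(value + 1) scale, with SE as bars). LCK, LYN and LAT stand in more than 1 list. Filled points passed an adjusted p of 0.05 in limma, which SYK did, and the dashed line is the median of all tested genes, -0.04.

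FYN and MARCKS followed each other in the order of panel genes along chromosome 6. Of 49 panel genes placed on this chromosome, 39 preceded FYN and 10 ran from FYN to the end of the long arm. Of these 10, 7 were tested. Leaving out FYN and MARCKS, both knockout lines lay above both wild-type lines in all 5 others, against 22.4% of all tested genes. Of these 5, limma called 3 higher, 0 lower and 2 not, against 6.23% of all tested genes called higher, with log2 fold changes from 0.65 to 1.06 and a median of 0.81. This stretch was picked out in an earlier look at the same data, so its counts are a description of it.

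TAB2, an adaptor of the kinase TAK1 in NF-kB signalling, had 357 and 364 normalised counts in WT-1 and WT-7, against 693 and 816 in KO-1 and KO-5 (log2 fold change 1.06 ± 0.11, SE, limma adjusted p = 6.09e-05). SOD2, the mitochondrial superoxide dismutase, had 801 and 844 in WT-1 and WT-7, against 1543 and 1352 in KO-1 and KO-5 (0.81 ± 0.09, SE, adjusted p = 0.000116). TBP, the TATA-binding protein and the last panel gene of the arm, had 598 and 561 in WT-1 and WT-7, against 1020.4 and 926 in KO-1 and KO-5 (0.75 ± 0.09, SE, adjusted p = 0.000274). Under limma without the trend all 3 lost their call, with adjusted p from 0.0774 to 0.095, and they kept it in the other alternatives. In the ratio of means these genes rose by 2.09-, 1.76- and 1.68-fold, against 2.32-fold for FYN and 2.35-fold for MARCKS.

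The other tested pair was less well counted. IL20RA, a chain of interleukin receptors, had 40.7 and 35.9 normalised counts in WT-1 and WT-7, against 81.2 and 62.4 in KO-1 and KO-5 (0.88 ± 0.26, SE, limma adjusted p = 0.072). MAP3K5, a stress-activated kinase, had 56.3 and 50.5 in WT-1 and WT-7, against 72.3 and 97.8 in KO-1 and KO-5 (0.65 ± 0.24, SE, adjusted p = 0.154). IL20RA passed with scaling on reference genes other than TBP (adjusted p = 0.0308) and with a filter at a mean of 50 (0.0418). It reached that filter, at a mean of 55.1, only through the knockout lines, as its wild-type mean was 38.3. Without knockout line 1 the log2 fold change of IL20RA was 0.69 and that of MAP3K5 0.86. Without knockout line 5 they were 1.07 and 0.43. IL22RA2, PLG and CCR6 were below the filter, at means of 7.46, 6.85 and 12.6, and of their single values only that of CCR6 in WT-7, at 22.3, exceeded the sample's background limit, 21.1. PLG had 4.45 and 3.12 in KO-1 and KO-5 against 10.4 and 9.41 in WT-1 and WT-7, and in the other 2 genes the groups overlapped.

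Just before FYN in the order, the groups were not separated. PRDM1, a transcriptional repressor and the nearest panel gene on that side, had 17.7 and 23.1 normalised counts in WT-1 and WT-7, against 43.4 and 21.9 in KO-1 and KO-5 (0.58 ± 0.43, SE, limma adjusted p = 0.46). CCNC, cyclin C, the next outward, was well counted, at 2827 ± 147 and 2845 ± 91.9 (SD, n = 2), and its log2 difference was 0.01 ± 0.07 (SE, adjusted p = 0.949). MAP3K7, which encodes TAK1, followed at 0.13 ± 0.11 (SE, adjusted p = 0.478). Over the 31 tested genes before FYN, 4 were called higher (PSMB8, PSMB9, TAP1 and CGAS), 0 lower, and 8 had both knockout lines above both wild-type lines, with a median of 0.04. Their log2 differences ran from -0.95 (IL17F) to 1.58 (PSMB8), the latter above all tested genes from FYN on. Over all tested genes 6.23% were called higher and 22.4% had both knockout lines above.

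With FYN and MARCKS left out of the gene order, because their values chose them, the tested genes from MAP3K5 to TBP formed a run of 5 neighbours in which both knockout lines lay above both wild-type lines. The next longest run was 4, on chromosome 18 from PIK3C3 to NFATC1, and no other chromosome had more than 3. The runs of 5 and 4 were the same when the mean had to reach 50, which IL20RA in the run of 5 did only through its knockout values. Over all tested genes 22.4% had both knockout lines above both wild-type lines, and the lengths are a description, since the stretch was known beforehand.

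**Figure D3:**
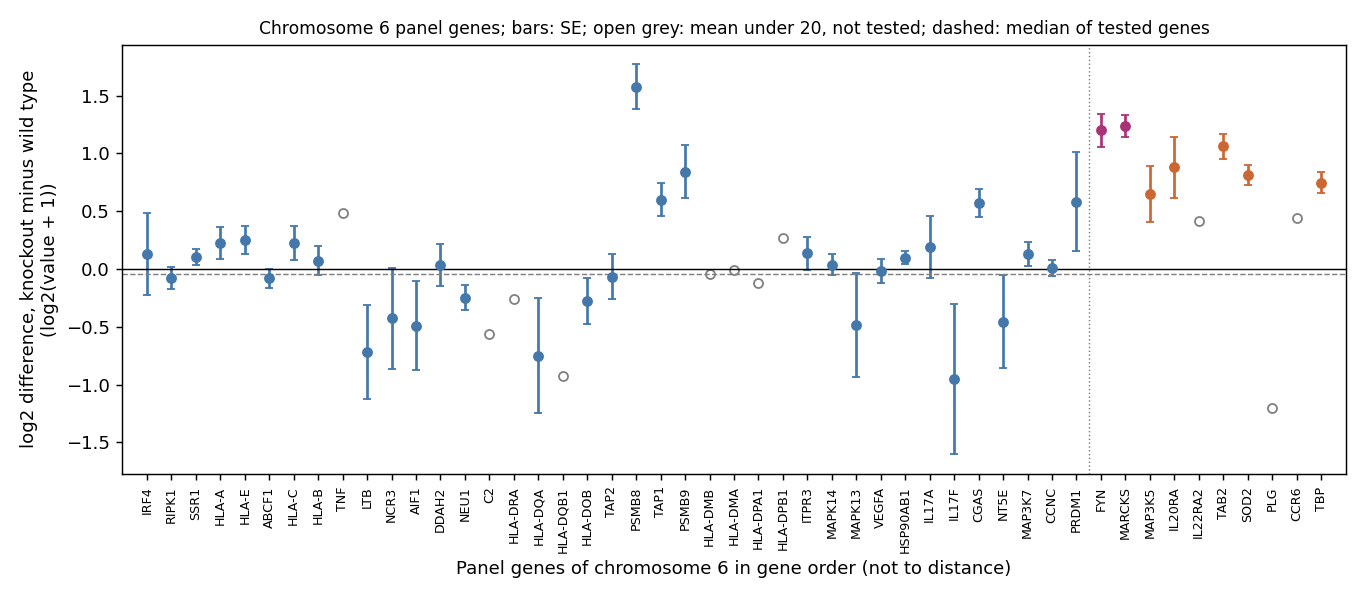
Log2 difference, knockout minus wild type, of the 49 panel genes on chromosome 6 in gene order (horizontal axis, equal spacing; vertical axis, log2(value + 1) scale; bars are SE). The 7 tested genes from FYN to TBP, of which FYN and MARCKS were chosen for being higher, lie between 0.65 and 1.24, right of the dotted line. The tested genes left of the dotted line lie between -0.95 and 1.58 (PSMB8), with a median of 0.04. Open grey points had a mean under 20.

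TBP is also a common reference gene. The geometric mean of TBP and 9 other reference genes (GUSB, PGK1, SDHA, HPRT1, ALAS1, OAZ1, NMT1, MRPS7 and ABCF1) was equal in the 4 samples within 1.04e-05 on the log2 scale, as if the deposited values had been scaled on these 10, whereas without TBP it spanned 0.10. With the 9 genes alone as the scale, the log2 difference of FYN was 1.28 and that of MARCKS 1.32. Scaling on the positive control probes, which owe nothing to cell RNA, gave 1.22 and 1.26. The median log2 fold change of all tested genes moved from -0.04 to 0.04 without TBP.

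The genes whose profile over the 4 samples was most like that of FYN and MARCKS were found by the root mean square difference of log2(value + 1), each gene centred on its own mean. For FYN the closest of the other 513 tested genes were ISG15 (0.08), TAB2 (0.10), MARCKS (0.12), CXCL16 (0.13) and LITAF (0.15). For MARCKS they were FYN (0.12), LITAF (0.15), TAB2 (0.18), AHR (0.18) and CXCL16 (0.18). The median difference over all tested genes was 0.65 for FYN and 0.67 for MARCKS. Both genes were chosen for being higher in the knockout lines, which favours their closeness to each other, so it is a description.

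ISG15, a ubiquitin-like protein induced by interferon, had 58.4 and 59.0 normalised counts in WT-1 and WT-7, against 119 and 157 in KO-1 and KO-5. Like FYN it was higher in knockout line 5 than in line 1. LITAF, a membrane protein of late endosomes, had 231 and 234 in WT-1 and WT-7, against 615 and 633 in KO-1 and KO-5, with knockout lines close to each other as for MARCKS. CXCL16, a membrane-bound chemokine, had 140 and 120 in WT-1 and WT-7, against 228 and 271 in KO-1 and KO-5. AHR, the aryl hydrocarbon receptor, had 64.7 and 57.3 in WT-1 and WT-7, against 111 and 119 in KO-1 and KO-5. In all of them the wild-type and knockout values did not overlap, which the measure favours, and of these TAB2 is the one on chromosome 6.

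**Figure D4:**
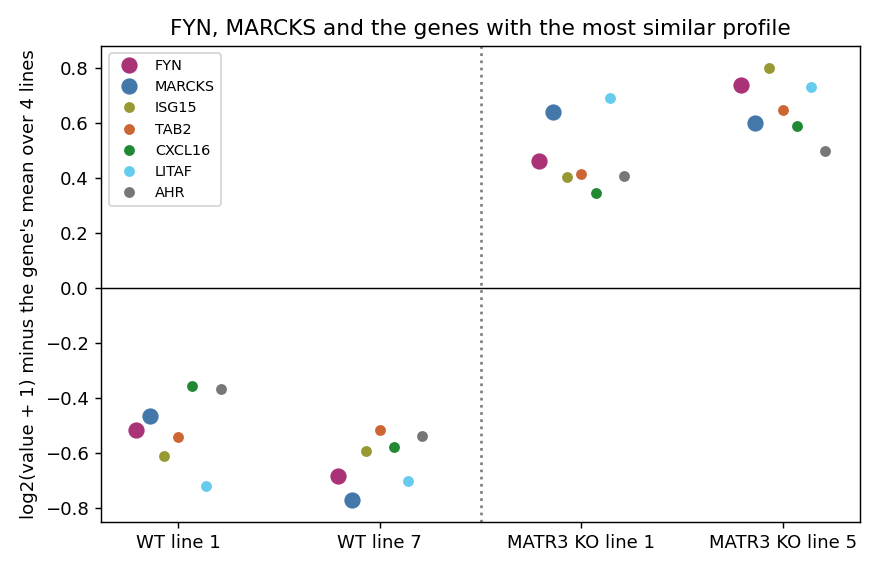
Profiles of FYN, MARCKS and the 5 other genes closest to either of them (vertical axis, log2(value + 1) minus the gene's mean over the 4 lines; horizontal axis, wild-type (WT) and MATR3 knockout (KO) lines; points are single samples, shifted sideways to be seen). All 7 genes lie below 0 in both wild-type lines and above 0 in both knockout lines, and FYN is higher in knockout line 5 whereas MARCKS is slightly higher in knockout line 1.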

How the data were processed

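Total RNA of 4 HAP1 lines was counted with NanoString probes, and R 4.1.1 was used per the submitters' processing notes. The values deposited by the authors are a normalised signal. In each sample 100% of the gene values above 1.5 were whole multiples of 1 factor (1.04, 0.856, 1.11 and 1.04), within 0.006. Deposited control probes (6 positive, 8 negative) are unscaled counts. The normalisation method is not given in the sources used here, and wild-type line 7 has a floor of 1.00 in 4 values.

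Genes with a mean of 20 or more (514) were compared with limma 3.58.1 (lmFit and eBayes with trend, R 4.3.3) on log2(value + 1), two-sided, Benjamini-Hochberg adjusted over all tested genes, threshold 0.05. Fold changes on this scale understate low genes. The alternative count test was edgeR 4.0.16 on the recovered counts, which called 41 genes. The fits were also tried on simulated counts with a fixed spread beyond counting error, which does not check them against the spread between these lines. Limma p-values weigh each difference against the spread between these lines, drawn towards that of genes with similar counts (prior of 9.00 degrees of freedom).

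Both genes and all lists were chosen with earlier results of these data known. Some list members are not reported here, and counts and medians of the lists cover the others. Beyond them, the text names list members past the threshold, the 2 largest changes of each list, genes of chromosome 6 after PRDM1 and the 5 closest profiles; other genes were chosen after their values were seen. The RefSeq table (GRCh38.p14) gave gene order and placed 768 of 785 probes.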

Additional observations from a re-analysis of the deposited data

How the results depend on the processing

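The log2 differences of FYN (1.20) and MARCKS (1.24) kept their sign and moved by less than the SD between lines under every scaling, the other pseudocount and edgeR. Without single lines FYN ranged from 1.06 to 1.34 and MARCKS from 1.08 to 1.39. With 2 lines per group a left-out line cannot move a difference by more than that SD, so these ranges are a description. Relative to the median of tested genes, an alternative added after the data were seen, the differences of FYN and MARCKS were 1.25 and 1.28. Limma without the trend called 4 genes in place of 42, with 0 of the 5 tested genes from MAP3K5 to TBP in place of 3 and 0 among immune receptor genes in place of 1. There the prior had 1.81 degrees of freedom in place of 9.00. Over all tested genes the number ranged from 37 to 82 without single lines, 82 being without knockout line 1, where 36 of the 42 calls were shared. The lone line left is assumed to vary like the other group. Without single lines the prior had 46.1 (knockout 1 left out), 187 (knockout 5) or infinite degrees of freedom (either wild-type line). Calls in these fits rest almost wholly on the spread pooled over genes. Without single lines the log2 fold change was 0.43 to 0.86 for MAP3K5 and 0.69 to 1.07 for IL20RA. It was 0.94 to 1.18 for TAB2, 0.72 to 0.91 for SOD2 and 0.68 to 0.82 for TBP. The immune receptor list had 2 calls with equal sample medians and 2 without TBP (SYK and PIK3CA both times), 0 with edgeR, and 0 to 2 without single lines: 0 without knockout line 1, and 2 (SYK and PIK3CD) without knockout line 5. The MARCKS partners had 1 call without TBP (PRKCD, adjusted p = 0.0359). Of the 10 closest profiles 9 were kept with the largest absolute difference or a pseudocount of 10. The tally that follows does not cover every gene named, such as PIK3CA, PIK3CD and PRKCD. It also leaves out comparisons in which a gene fell under the filter. Over 17 other named genes, 181 comparisons kept their side of the threshold, 11 lost it, 4 gained it, and none turned in sign. The calls, 32 of them higher and 10 lower, became 53 and 8 without TBP, 22 and 10 with positive controls and, with the balance turned, 38 and 44 without knockout line 1. The cause of these changes was not tested. No paired analysis was possible because only number 1 occurs in both genotypes.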
